A study of Mus musculus with 28 samples.

Results

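Splenic plasmacytoid dendritic cells (pDCs) in which Irf8 had been deleted were compared with control pDCs by RNA sequencing. The comparison took 12 of the 28 libraries of the series, chosen by sample title: 4 titled pDC TG and 8 titled pDC WT. Both groups came from untreated C57Bl/6 mice at an age of 6 to 12 weeks, and both carried the floxed allele Irf8fl/fl. The 4 pDC_TG libraries came from Irf8fl/fl Itgax-cre mice, and the 8 pDC_WT libraries from Irf8fl/fl mice without the Cre. Cre was driven by regulatory sequence of Itgax, which encodes the integrin CD11c of dendritic cells and some other leukocytes, so deletion depends on Itgax activity and need not be complete. The labels number the source mice separately within each group, but the study's design text speaks of 4 replicates where 8 pDC_WT libraries are labelled, and the n behind each p-value here takes the labels as given; the Itgax-cre line, the pDC gate and any sharing of sort days between groups were not given. The question was which genes and functions differ between Irf8-deleted and control pDCs. Whether deletion took place before or after the pDCs had formed is not given.

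IRF8 is a transcription factor of the interferon regulatory factor family that acts with partners such as PU.1 and other ETS or AP-1 factors, and it is known for its role in the development of type 1 conventional dendritic cells (cDC1). pDCs are round cells with a secretory appearance that carry TLR7 and TLR9 in their endosomes and release type I interferon when these receptors bind viral nucleic acid. Their identity is known to depend on the E protein TCF4, with SPIB, RUNX2 and BCL11A, and a well developed endoplasmic reticulum (ER) serves their secretion.

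Each library held between 17299285 and 30787679 counts assigned to genes, and between 12039 and 13344 genes with a count. The first principal component, with 25.7% of the variance, separated the 4 pDC_TG libraries from the 8 pDC_WT libraries. The pDC markers summed to between 8652 and 11200 CPM (counts scaled to library size) in pDC_WT and to between 7003 and 8828 CPM in pDC_TG, and no pDC marker was below 1 CPM in all libraries. CPM here is scaled by the trimmed mean of M values (TMM). The pDC_TG replicate 4 library stood apart from the other 3 in markers of other cells. Its 11 neutrophil markers present in the files summed to 216 CPM, against 0.586, 0.619 and 5.37 CPM in replicates 1 to 3 and 0.464 to 3.15 CPM in pDC_WT, and its 12 monocyte and macrophage markers to 51.2 CPM, against 12.8 to 18.8 CPM and 18.7 to 38.6 CPM. Erythroid markers summed to at most 1.08 CPM and mast cell and basophil markers to at most 0.0534 CPM in any pDC library. Each list count and gene call below is therefore also given without this library where it changes. Counts by size of change, overlap, control level or promoter match rest on all 12 libraries. The part of the markers of other cells in other results was not tested. In sorted bulk samples, a smaller share of cells with an RNA and less of that RNA per cell cannot be told apart.

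Irf8 RNA (chromosome 8, 120736358 to 120756694, plus strand in mm10) was lower in every pDC_TG library but was not absent. Its level was 1626, 1530, 1272 and 1938 CPM in pDC_TG replicates 1 to 4, the order in which all pDC_TG values are given below, and 5914, 6889 and 7076 CPM in pDC_WT (lowest, median and highest of 8). The pDC_TG libraries thus kept 23.8% of the mean control level, and the groups did not overlap. The log2 fold change was -2.07 (SE 0.11, adjusted p = 9.23e-10; edgeR quasi-likelihood test with Benjamini-Hochberg adjustment over all tested genes), and the exact two-sided permutation p over all assignments of the libraries to groups of 4 and 8 was 0.00202, the smallest that 4 against 8 allows. Counts over the whole gene do not show which exon was removed, so transcripts of a deleted allele may be among them. The 5 tested genes within 500 kb of Irf8 did not pass the threshold.

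**Figure D1:**
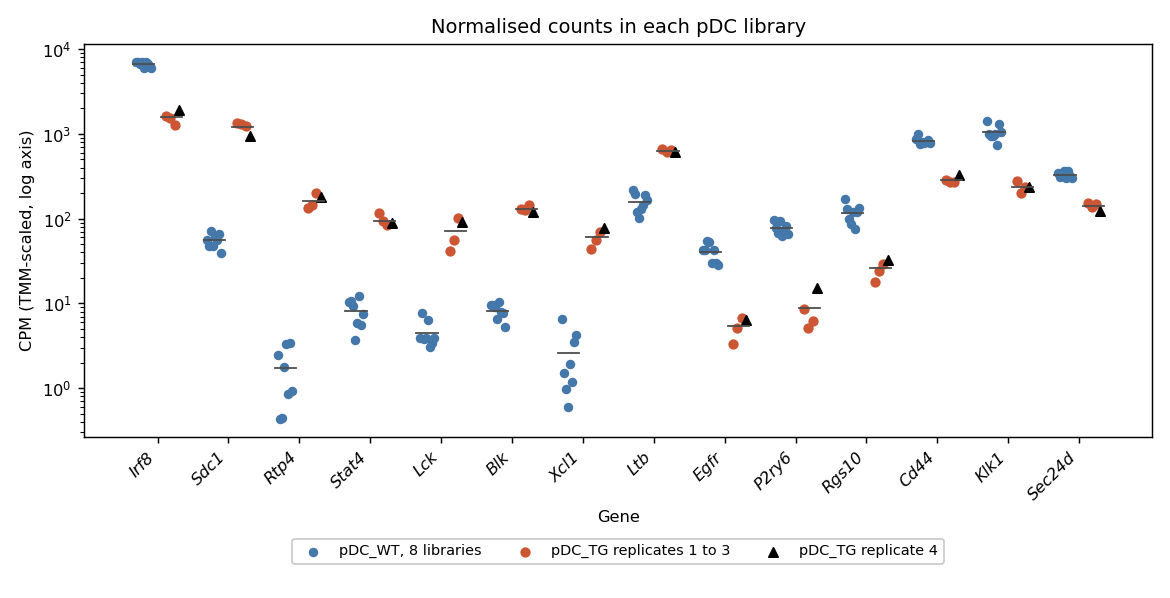
Normalised counts of 14 genes in each pDC library, on a logarithmic axis in CPM. Circles in the left column of each gene are the 8 pDC_WT libraries, circles in the right column pDC_TG replicates 1 to 3, triangles pDC_TG replicate 4 and horizontal lines the group means. The groups do not overlap for any gene shown, from Sdc1, Rtp4, Stat4, Lck, Blk, Xcl1 and Ltb, which were higher, to Irf8, Egfr, P2ry6, Rgs10, Cd44, Klk1 and Sec24d, which were lower. Most of these genes were named among the largest changes or smallest p-values, for which no overlap was a condition.

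Of 11968 tested genes, 828 were higher (6.92%) and 968 were lower (8.09%) in pDC_TG at an adjusted p below 0.05, and 380 of the higher and 313 of the lower genes changed at least 2-fold. The pDC_TG libraries lay wholly above the pDC_WT libraries for 645 genes (5.39%) and wholly below for 629 (5.26%). The shares of 6.92% higher and 8.09% lower are the background to each list count below. The median log2 fold change of all tested genes was -0.0016. Without pDC_TG replicate 4, 631 of the 828 and 753 of the 968 calls were made again. When libraries were scaled by total counts alone, higher calls were 53.5% of all calls, against 46.1% with TMM. Genes that rose made up 8.98% of the mean CPM in pDC_WT and 14.3% in pDC_TG, and genes that fell 22.01% and 13.6%.

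The largest rises were sought among genes with a mean of at least 10 CPM in pDC_TG and no overlap of libraries between groups. They were of genes close to silent in control pDCs, which a ranking by fold change favours. Plcb1, which encodes the phospholipase C beta 1 that acts below G protein-coupled receptors, was at 10.2, 15.7, 23.3 and 19.0 CPM in pDC_TG and at 0, 0 and 0.168 CPM in pDC_WT, a log2 fold change of 8.38 (SE 0.68, adjusted p = 1.20e-07). Rtp4, an interferon-inducible chaperone of receptor transport, was at 132, 144, 199 and 179 CPM against 0.431, 1.36 and 3.43 CPM (log2 fold change 6.59). Chst2, a carbohydrate sulfotransferase, was at 75.3, 104, 78.4 and 55.6 CPM against 0, 0.213 and 3.46 CPM (log2 fold change 6.56). No control library reached 4 CPM in these 3 genes, and the lack of overlap was a condition of their choice.

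The genes for the secreted calcium-binding protein Smoc1 (log2 fold change 7.04), the CSF1 receptor ligand Il34 (5.13) and the estrogen receptor Esr1 (5.07) showed the same pattern, at between 7.51 and 41.1 CPM in the pDC_TG libraries. Of more abundant RNAs, Sdc1, the heparan sulfate proteoglycan syndecan-1 of plasma cells, was at 1332, 1303, 1249 and 946 CPM against 39.8, 56.4 and 72.0 CPM and had the smallest p of the genes that rose (log2 fold change 4.44, adjusted p = 9.49e-13). Of the 828 genes that rose, 63 had a mean under 1 CPM in pDC_WT and 590 had at least 10 CPM there.

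**Figure D2:**
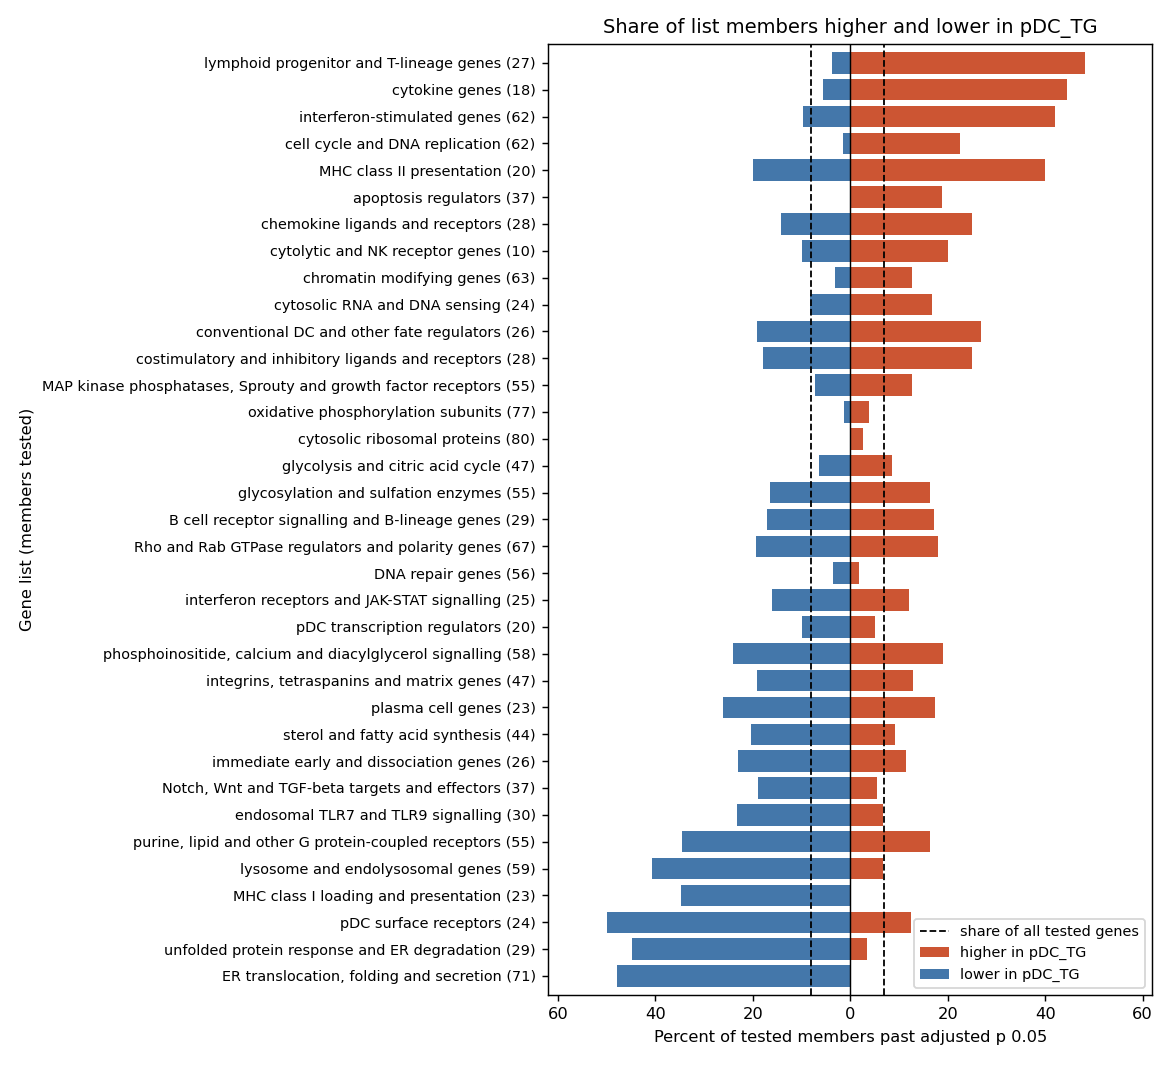
Share of tested members of each of 35 gene lists that were higher (right) and lower (left) in pDC_TG at an adjusted p below 0.05, in percent, with the number tested in parentheses. Dashed lines mark the shares among all tested genes, 6.92% and 8.09%. The lymphoid and T-lineage list (13 of 27) has the longest bar to the right, and the pDC surface receptors (12 of 24) and the ER list (34 of 71) have the longest bars to the left.

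Genes of lymphoid progenitors and of the T lineage were more often higher than lower. Of 27 tested members of the list, 13 rose and 1 fell, with a median log2 fold change of 0.67, and without pDC_TG replicate 4 the counts were 12 and 1. Lck, the Src-family kinase that starts T cell receptor signalling, was at 41.7, 56.3, 101 and 90.1 CPM in pDC_TG and 3.04, 3.88 and 7.76 CPM in pDC_WT (log2 fold change 4.01, SE 0.26, adjusted p = 1.02e-08). Il2ra, the alpha chain of the interleukin-2 receptor, was at 80.1, 85.8, 101 and 76.6 CPM against 0.504, 5.02 and 7.56 CPM (log2 fold change 4.16). Tcf7, which encodes the T cell factor TCF-1, was at 11.7, 17.7, 15.5 and 21.7 CPM against 0.0392, 0.898 and 1.23 CPM (log2 fold change 4.40). For each of the 3 genes the lowest deleted library lay above the highest control, as for 5.39% of all tested genes. For Lck the lack of overlap was a condition of its choice.

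Cd2, an adhesion receptor of T and NK cells, rose from near 0 (log2 fold change 4.33), and the abundant lymphoid RNAs moved less. Dntt, the terminal transferase of lymphoid progenitors, was at 539, 556, 554 and 510.5 CPM against 172, 228 and 300.3 CPM (log2 fold change 1.25). Cd8a rose by 1.30 and the cytokine receptor Flt3 by 0.74 on the log2 scale. Cd4 was the member that fell (-0.73). The T cell markers of a separate list (Cd3d, Cd3e, Cd3g, Bcl11b, Cd28 and Camk4 in the files) summed to 61.5 to 120 CPM in pDC_WT and to 52.3 to 80.7 CPM in pDC_TG, and none of the 3 tested passed. NK cell markers summed to 4.02 to 5.59 CPM in pDC_TG and to 0.471 to 2.59 CPM in pDC_WT, with 6 of 8 under 1 CPM in every library; their part in these rises was not tested.

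Genes of B cell receptor signalling split evenly. Of 29 tested, 5 rose and 5 fell, with a median log2 fold change of 0.07, and the counts were the same without pDC_TG replicate 4. Blk, the B-lineage Src-family kinase, was at 131, 126, 144 and 119.9 CPM in pDC_TG and 5.24, 8.48 and 10.4 CPM in pDC_WT (log2 fold change 3.99, SE 0.16, adjusted p = 1.37e-11). The inhibitory receptor Cd22 was at 46.4, 40.2, 46.9 and 49.7 CPM against 0.285, 1.38 and 6.16 CPM (log2 fold change 4.26), and the scaffold gene Bank1 rose by 4.12 on the log2 scale. Cd72, a further inhibitory receptor, rose by 1.002, but 41.6% of its exonic bases overlap Tesk1. Those that fell included the phosphatase Ptpn6 (-0.57) and the adaptor Pik3ap1 (-0.88). The 7 B cell markers present in the files summed to between 12.1 and 30.1 CPM in pDC_TG, within the 6.74 to 38.7 CPM of pDC_WT.

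Among 20 tested regulators of pDC identity, Irf8 included, 1 rose (5.00%) and 2 fell (10.0%), near the shares of all tested genes (6.92% and 8.09%), and the median log2 fold change was 0.06. Tcf4, the E protein on which pDC identity depends, was at 851, 755, 643 and 937 CPM in pDC_TG and 609.8, 830.1 and 879 CPM in pDC_WT, with overlapping groups. Log2 fold changes were 0.03 (SE 0.12) for Tcf4, 0.07 (SE 0.13) for Spib, 0.18 (SE 0.12) for Runx2, 0.09 (SE 0.09) for Bcl11a and -0.10 (SE 0.15) for Zeb2. The Myc family gene Mycl fell by 0.64, and the ETS factor gene Fli1 rose by 0.34 on the log2 scale. Fli1 did not pass without pDC_TG replicate 2 (adjusted p = 0.0605) or 3 (adjusted p = 0.0941).

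Regulators of conventional dendritic cell and other fates changed in both directions. Of 26 tested, 7 rose, 5 fell and 14 did not pass, and 7 and 4 did so without pDC_TG replicate 4. Prdm1, which encodes the plasma cell repressor BLIMP-1, was at 61.8, 56.0, 77.5 and 83.0 CPM against 3.53, 6.68 and 10.7 CPM (log2 fold change 3.37, SE 0.23, adjusted p = 2.17e-08). The leucine zipper repressor Nfil3 (2.02), Irf4, the closest relative of Irf8 (1.58), the E protein inhibitor Id3 (1.42), Spi1, which encodes PU.1 (1.07), Bcl6 (1.07) and Irf2 (0.90) rose too. Spi1 was at 201, 218, 211 and 247 CPM against 88.7, 104 and 121 CPM, a narrow spread in both groups. Among the 5 that fell, Cebpb was at 13.5, 15.2, 21.96 and 30.4 CPM against 48.9, 81.9 and 125 CPM (log2 fold change -1.98), the quiescence factor Klf2 fell by 1.53 and Irf1 by 0.83 on the log2 scale. Markers of conventional dendritic cells changed in both directions too. The 10 cDC1 markers summed to 202, 156, 112 and 99.1 CPM in pDC_TG and to 205 to 325 CPM in pDC_WT, and 1 of 6 tested rose and 3 fell. The 9 cDC2 markers in the files summed to 982, 1082, 944 and 1043 CPM against 1157 to 1748 CPM, while their mean on the log2(CPM + 1) scale was 4.35 to 4.57 against 3.53 to 3.94, and 3 of 7 tested rose and 3 fell. In both lists every deleted library lay outside the control range, and the part of these markers in the result was not tested.

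Cytokine genes were more often higher than lower. Of 18 tested, 8 rose and 1 fell, with and without pDC_TG replicate 4, and the median log2 fold change was 0.84. Without pDC_TG replicate 3, 6 rose. A further 15 members had too few counts to be tested. Ltb, which encodes lymphotoxin beta, was at 659.6, 606, 640.1 and 612 CPM in pDC_TG and 103, 154 and 215 CPM in pDC_WT (log2 fold change 2.00, SE 0.15, adjusted p = 7.06e-08). Tnfsf11, which encodes RANKL, was at 0.921, 6.52, 8.53 and 13.4 CPM, while 7 of 8 control libraries held no count. The dendritic cell growth factor gene Flt3l (1.70) and Ifng (3.92), which encodes interferon gamma, also rose, the latter at between 2.81 and 6.86 CPM, with 25.9% of its exonic bases shared with a predicted gene. Ifng did not pass without pDC_TG replicate 3 (adjusted p = 0.059). Tgfb1 fell by 0.73 on the log2 scale.

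Chemokine ligands and receptors showed 7 rises and 4 falls among 28 tested, with the same counts without pDC_TG replicate 4. Xcl1, the ligand of the cDC1 receptor XCR1, was at 43.5, 55.3, 69.0 and 77.6 CPM against 0.595, 1.72 and 6.59 CPM (log2 fold change 4.598, adjusted p = 1.02e-06). Ccr7, the receptor that guides cells to lymph nodes, rose by 1.62. Of the receptors that fell, Cxcr3 was at 86.3, 80.0, 55.3 and 91.1 CPM against 162, 231 and 288 CPM (log2 fold change -1.57), and the pDC gut-homing receptor Ccr9 fell by 0.62. The fall of Ccr9 did not pass when all 28 libraries gave the spread.

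Of the genes that pass on interferon signals, Stat4 changed most. Stat4, which relays interleukin-12 and type I interferon signals, was at 116, 92.6, 83.6 and 88.1 CPM in pDC_TG and 3.73, 8.41 and 12.2 CPM in pDC_WT (log2 fold change 3.54, SE 0.24, adjusted p = 1.52e-08), with 26.7% of its exonic bases in common with another annotated gene. Of 25 tested members, 3 rose and 4 fell (3 and 5 without pDC_TG replicate 4). The kinase genes Tyk2 (-0.80) and Jak2 (-0.85) fell, whereas the receptor gene Ifnar1 had a log2 fold change of -0.07 (SE 0.11, adjusted p = 0.768).

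Interferon-stimulated genes were more often higher than lower in these untreated mice. Of 62 tested, 26 rose and 6 fell, the median log2 fold change was 0.35, and 23 rose and 5 fell without pDC_TG replicate 4. Without pDC_TG replicate 3 the number that fell was 3. Several of the genes that rose were of low level in control pDCs. Ifit3, an antiviral RNA-binding protein, was at 37.6, 37.6, 54.7 and 37.5 CPM against 0.706, 1.73 and 4.00 CPM (log2 fold change 4.24, adjusted p = 9.56e-08), and Oas3, an oligoadenylate synthetase, at 56.1, 57.2, 55.4 and 43.5 CPM against 5.12, 8.04 and 12.6 CPM (log2 fold change 2.72). The RNA sensor gene Ddx58, which encodes RIG-I, was at 66.6, 55.8, 73.9 and 45.4 CPM against 1.18, 3.46 and 6.23 CPM (log2 fold change 4.04). Deleted and control libraries did not overlap in any of these. Ifit3 and Ifit3b, and the Oas1 genes, are near-identical copies, so reads could be split between them.

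Irf7, the factor that amplifies interferon expression, was in contrast at 745, 663, 748 and 789 CPM against 516, 711 and 816 CPM (log2 fold change 0.10, SE 0.13), with overlapping groups. Of the 6 interferon-stimulated genes that fell, Bst2 was at 799.6, 697, 872 and 869 CPM against 1064, 1192 and 1707 CPM (log2 fold change -0.64); it encodes the pDC surface antigen PDCA-1.

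Promoter windows of the interferon-stimulated genes are shown because 32 of 62 members passed the test. The 26 that rose were 41.9% of those tested and the 6 that fell 9.68%, near the 8.09% of all tested genes. A further reason is that IRF-family factors are known to bind the repeated GAAA of these promoters. The windows come from the RefSeq promoter table (build GRCm38.p6, 250 bases before to 50 after each start; 9183 of the 11968 tested genes have an entry), read 5′ to 3′ on the gene's strand. Capitals mark matches to GAAANNGAAA on either strand; overlapping matches run together. The genes were Ifit1 (chr19:34640774-34640843, plus strand), Isg15 (chr4:156200845-156200914, minus strand), Oas3 (chr5:120777695-120777764, minus strand), Gbp2 (chr3:142620574-142620643, plus strand) and, of the genes that fell, Bst2 (chr8:71537557-71537626, minus strand).
Ifit1: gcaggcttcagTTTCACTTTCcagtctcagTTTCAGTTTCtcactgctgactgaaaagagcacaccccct
Isg15: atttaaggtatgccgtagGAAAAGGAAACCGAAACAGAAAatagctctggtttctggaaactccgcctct
Oas3: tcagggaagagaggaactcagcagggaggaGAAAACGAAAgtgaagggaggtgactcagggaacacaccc
Gbp2: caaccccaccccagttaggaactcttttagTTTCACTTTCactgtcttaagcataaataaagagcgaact
Bst2: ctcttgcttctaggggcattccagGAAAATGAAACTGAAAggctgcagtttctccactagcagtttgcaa
Of the 47 tested interferon-stimulated genes with a promoter entry, 26 held a match (55.3%), against 3.84% of all tested genes with an entry and 3.34% of all 20788 promoters. The match was present in 12 of 20 that rose and in 3 of 4 that fell. The 26 genes with a match had a median log2 fold change of 0.44 and the 21 without one 0.30. Among all genes that rose, 7.70% held a match, and among all that fell 4.35%. The composite GGAANNGAAA, to which IRF8 is known to bind with PU.1 or SPIB, was in 4.01% of genes that rose and 2.99% of genes that fell, against 3.05% of all tested genes.

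Genes of the ER that carry out protein translocation, folding and export fell in many cases and rose in none. Of 71 tested, 34 fell and 37 did not pass, the median log2 fold change was -0.36, and without pDC_TG replicate 4 the counts were 29 and 0. Sec24d, a cargo-binding subunit of the COPII coat, was at 153, 137, 147 and 123 CPM in pDC_TG and 303, 326 and 363 CPM in pDC_WT (log2 fold change -1.24, SE 0.09, adjusted p = 5.66e-08). Hspa5, which encodes the chaperone BiP, was at 844, 931, 861 and 881 CPM against 1292, 1394 and 1501 CPM (log2 fold change -0.66, adjusted p = 8.01e-06). The disulfide isomerase gene Pdia5 fell most (-1.32), and 68 of the 71 moved by less than 1 on the log2 scale.

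The unfolded protein response and ER degradation list followed, with 13 falls and 1 rise among 29 tested (median -0.39), and 11 and 1 without pDC_TG replicate 4. Xbp1, the transcription factor that expands the ER of secretory cells, was at 486, 455, 495 and 548 CPM against 813, 971 and 1175 CPM (log2 fold change -0.998, adjusted p = 2.33e-06). Herpud1, a component of ER-associated degradation, fell by 0.73, and the ubiquitin-conjugating enzyme gene Ube2j1 was the member that rose (0.55). In a list of plasma cell genes, 4 of 23 tested rose, Prdm1 and Sdc1 among them, and 6 fell (4 and 5 without pDC_TG replicate 4), with a median log2 fold change of -0.20. Plasma cell markers summed to 167 to 365 CPM in pDC_WT and to 57.1, 87.4, 63.4 and 173 CPM in pDC_TG; only 4 of that list's 8 genes are in the files, and its part in the ER result was not tested.

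Promoter windows of 5 ER genes that fell are shown because they hold an element that is rare among all promoters. It was in 7 of 55 tested ER list genes with an entry (12.7%) and 2 of 25 of the unfolded protein response list (8.00%), so most members lack it in this window. Capitals mark matches to the ER stress response element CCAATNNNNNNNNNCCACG on either strand, in genes on chr2:34771995-34772073 (Hspa5, plus strand), chr10:86705503-86705581 (Hsp90b1, minus strand), chr15:88819490-88819568 (Creld2, plus strand), chr12:17266461-17266539 (Pdia6, plus strand) and chr8:84847045-84847123 (Calr, minus strand) of GRCm38.p6.
Hspa5: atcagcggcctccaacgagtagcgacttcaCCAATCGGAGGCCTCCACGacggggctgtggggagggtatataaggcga
Hsp90b1: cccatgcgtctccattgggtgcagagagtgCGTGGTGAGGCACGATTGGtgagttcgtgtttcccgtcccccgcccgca
Creld2: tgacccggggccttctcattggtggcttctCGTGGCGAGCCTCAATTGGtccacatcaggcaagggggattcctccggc
Pdia6: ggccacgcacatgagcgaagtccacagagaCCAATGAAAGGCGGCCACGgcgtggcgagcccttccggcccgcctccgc
Calr: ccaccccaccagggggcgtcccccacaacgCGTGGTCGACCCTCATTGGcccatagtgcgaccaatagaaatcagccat
The element was found in 0.144% of all promoters and in 15 of the 9183 tested genes with an entry. Of these 15 genes, 8 fell and none rose: Hspa5, Creld2, Pdia6, Hsp90b1, Calr, Canx, Dnajc3 and Derl3. All 8 are on the ER lists. Their log2 fold changes ranged from -0.32 for Calr to -0.95 for Creld2, apart from the scarce Derl3 (-3.85 from a mean of 1.70 CPM in pDC_WT). Of the 7 others, Syvn1 is on the ER lists (-0.29, adjusted p = 0.31) and the remaining 6 are not. Without pDC_TG replicate 4, adjusted p was 0.0568 for Canx, 0.0812 for Dnajc3 and 0.109 for Derl3. Canx also did not pass without pDC_TG replicate 1 or 3 (0.0554 and 0.0695), Dnajc3 without replicate 2 (0.055), and Derl3 when pDC_TG replicate 2 or 3 or any control library but replicate 4 was left out (0.0558 to 0.115). The shorter unfolded protein response core TGACGTGG was in 1.63% of genes that fell, 0.803% of genes that rose and 1.08% of all tested genes.

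**Figure D3:**
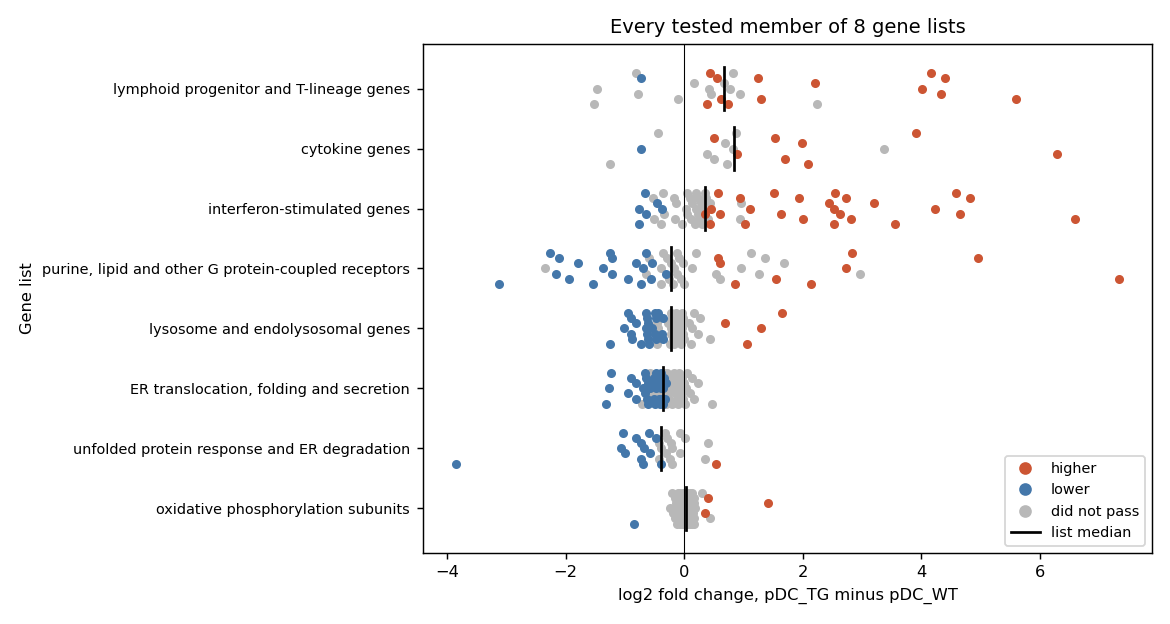
Log2 fold change (pDC_TG minus pDC_WT) of every tested member of 8 gene lists. Each point is a gene, coloured where it was higher or lower at an adjusted p below 0.05, and black bars are list medians. The medians of the ER and lysosome lists lie left of 0 (-0.36 and -0.22), with 4 lysosome members called higher, the interferon-stimulated and lymphoid lists spread to the right (0.35 and 0.67), and the oxidative phosphorylation list lies at 0.03.

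Lysosomal genes were more often lower than higher. Of 59 tested, 24 fell, 4 rose and 31 did not pass (median log2 fold change -0.22), and 21 and 4 did so without pDC_TG replicate 4. Against pDC_WT replicates 5 to 8 alone, 15 fell; without pDC_TG replicate 3, 2 rose. Psap, the precursor of the saposins that help degrade sphingolipids, was at 3720, 3884, 3314 and 4194 CPM in pDC_TG and 5337, 7823 and 9408 CPM in pDC_WT (log2 fold change -1.02, adjusted p = 6.99e-05). The acid ceramidase gene Asah1 was at 259.5, 212, 195 and 272 CPM against 368, 590.0 and 675 CPM (-1.25), the cathepsin gene Ctsb fell by 0.64, and the membrane protein genes Scarb2 and Lamp2 by 0.89 and 0.63 on the log2 scale. Groups were separate for all 5. Acp5, the tartrate-resistant acid phosphatase of osteoclasts, went the other way, at 50.9, 44.9, 54.5 and 47.2 CPM against 11.8, 14.4 and 20.7 CPM (log2 fold change 1.65).

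In the endosomal nucleic acid receptor list, 7 of 30 tested genes fell (6 without pDC_TG replicate 4) and 2 rose. The number that rose was 0 or 1 when any one library other than pDC_WT replicate 1 or 3 or pDC_TG replicate 4 was left out. Tlr7, the receptor of single-stranded RNA, was at 309.5, 239.7, 231 and 245 CPM against 312, 427 and 521 CPM (log2 fold change -0.70), and Irf5 fell by 1.15. Tlr9, the receptor of unmethylated DNA, was at 6.74, 8.75, 9.15 and 6.16 CPM against 7.65, 9.41 and 13.1 CPM (-0.32, SE 0.23, adjusted p = 0.422), and Unc93b1, which carries both receptors to the endosome, did not pass (-0.23, SE 0.11). Tlr12, a receptor of parasite profilin, fell by 1.97 on the log2 scale.

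Surface receptors of pDCs had the largest share of lower genes of the 35 lists (12 of 24). Beside these 12, 3 rose, and 10 and 3 did so without pDC_TG replicate 4. When all 28 libraries gave the spread, 7 fell. The C-type lectin gene Clec10a was at 35.5, 30.7, 29.5 and 57.4 CPM in pDC_TG and 232, 272 and 355 CPM in pDC_WT (log2 fold change -2.84, SE 0.19, adjusted p = 1.02e-08). Cd209d was at 68.7, 78.6, 46.4 and 103 CPM against 389, 505 and 643 CPM (-2.80); its family holds close copies. Havcr1, which encodes TIM-1, was at 62.8, 66.0, 59.9 and 68.2 CPM against 182, 222 and 247 CPM (-1.75). The collagen receptor Lair1 fell by 1.25 and Siglech by 0.66, the latter without passing when all 28 libraries gave the spread. Outside the list, Cd44, the hyaluronan receptor, was at 284, 267, 273 and 323 CPM against 768, 799 and 984 CPM (-1.53, adjusted p = 6.25e-09), the kallikrein gene Klk1 at 275, 199.9, 235 and 234 CPM against 740.0, 988 and 1430 CPM (-2.15), and Clec9a, the dead-cell receptor of cDC1 and pDCs, fell by 3.79.

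G protein-coupled receptors for purines and lipids changed in both directions. Of 55 tested, 19 fell and 9 rose (17 and 9 without pDC_TG replicate 4), with a median log2 fold change of -0.22. Receptors for extracellular nucleotides were among those that fell. P2ry6, a UDP receptor, was at 8.67, 5.16, 6.17 and 15.3 CPM in pDC_TG and 61.7, 74.7 and 97.0 CPM in pDC_WT (log2 fold change -3.13, SE 0.26, adjusted p = 1.91e-07), and the ADP receptor P2ry12 at 16.5, 7.55, 8.46 and 9.69 CPM against 41.9, 48.1 and 69.0 CPM (-2.26). P2ry13 fell by 1.38 and P2ry14, which binds UDP-glucose, by 0.64. The proton sensor Gpr65 (-1.79), the platelet-activating factor receptor Ptafr (-1.22) and Gpr35 (-1.24) fell as well.

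Receptors for histamine, adenosine and lysophospholipids were among those that rose. Hrh1, the histamine H1 receptor, was at 113, 112, 74.5 and 79.0 CPM against 2.82, 11.3 and 26.2 CPM (log2 fold change 2.84, adjusted p = 6.71e-05), and the adenosine receptor Adora2a at 65.7, 74.5, 55.3 and 51.1 CPM against 14.1, 22.3 and 30.0 CPM (1.55). Gpr34, a lysophosphatidylserine receptor, rose by 2.73. Lpar1, a lysophosphatidic acid receptor, was at 2.22, 2.56, 8.89 and 2.98 CPM, against 4 counts in all 8 control libraries together.

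Signalling below these receptors was split. In the phosphoinositide, calcium and diacylglycerol list, 11 of 58 tested genes rose and 14 fell (10 and 11 without pDC_TG replicate 4, 9 lower against pDC_WT replicates 5 to 8 alone). Beside Plcb1, the phospholipase Plcb4 was at 42.7, 37.0, 29.7 and 42.2 CPM against 3.13, 5.33 and 7.56 CPM (log2 fold change 2.86, adjusted p = 1.44e-07). Prkcd, a protein kinase C that responds to diacylglycerol, fell by 0.95 and so did the plasma membrane calcium pump Atp2b4 (-1.80). Of the growth factor receptor list, 7 of 55 tested rose (12.7%) and 4 fell (7.27%). The shares of all tested genes were 6.92% and 8.09%, so falls were near the background. Egfr, the epidermal growth factor receptor, was at 3.31, 5.16, 6.75 and 6.40 CPM in pDC_TG and 28.01, 42.6 and 54.4 CPM in pDC_WT (-2.90, adjusted p = 3.61e-07), and its relative Erbb3 at 6.74, 11.2, 10.6 and 8.48 CPM against 28.5, 34.8 and 49.9 CPM (-1.95), whereas Fgfr1 (1.33) and the receptor signalling inhibitor Spry1 (2.29) rose. Egfr and Erbb3 lay below every control library, as did 5.26% of all tested genes. For Egfr the lack of overlap was a condition of its choice.

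The Notch ligand gene Dll4 was at 30.6, 61.2, 44.7 and 49.99 CPM against 67.5, 92.1 and 154 CPM (log2 fold change -1.04) and Dll1 fell by 1.98, although neither passed when all 28 libraries gave the spread. The Wnt effector Tcf7l2 was at 42.8, 42.4, 33.3 and 48.6 CPM against 87.0, 104 and 117 CPM (-1.30, adjusted p = 1.02e-06), opposite in direction to its family member Tcf7. In all, 7 of 37 tested Notch, Wnt and TGF-beta genes fell and 2 rose (6 and 1 without pDC_TG replicate 4), against 3 that fell with all 28 libraries giving the spread; 1 rose when pDC_WT replicate 5 or pDC_TG replicate 2, 3 or 4 was left out.

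Enzymes that build cell surface glycans changed in both directions, with 9 of 55 tested higher and 9 lower (6 and 5 without pDC_TG replicate 4). Lower calls numbered 5 when pDC_TG replicate 2, 3 or 4 or pDC_WT replicate 6 was left out, and 5 when libraries were scaled by total counts alone. St6gal1, which caps N-glycans with sialic acid, was at 339, 385, 359 and 266 CPM against 74.0, 90.7 and 104 CPM (log2 fold change 1.89, SE 0.11, adjusted p = 2.26e-09). St3gal2 rose by 1.58 and Fut7, a fucosyltransferase of selectin ligands, by 2.60, while the sialyltransferase gene St8sia6 was at 1.26, 2.39, 1.92 and 3.15 CPM against 3.45, 12.4 and 20.1 CPM (-2.47). Among lipid enzymes, 9 of 44 tested fell and 4 rose (7 and 4 without pDC_TG replicate 4, 4 and 4 against pDC_WT replicates 5 to 8 alone). The sterol pathway gene Mvd was lower (-0.85) and the fatty acid elongase and desaturase genes Elovl5 (0.72) and Fads1 (0.85) higher. Central carbon metabolism was near the background, with 4 of 47 higher (8.51%; 2 without any one of the pDC_TG libraries or without pDC_WT replicate 5 or 6) and 3 lower (6.38%; 5 without pDC_WT replicate 8). Ldhb, a lactate dehydrogenase subunit, was at 46.9, 48.4, 40.2 and 51.5 CPM against 96.5, 124 and 164 CPM (-1.44). Sms, the spermine synthase gene, fell from 164, 186 and 217 CPM to 55.1, 42.4, 58.7 and 53.6 CPM (-1.86).

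Antigen presentation genes did not move as a unit. In the MHC class II list, 8 of 20 tested rose and 4 fell (7 and 3 without pDC_TG replicate 4). H2-Ob, the beta chain of the peptide-editing inhibitor H2-O, was at 190.1, 209, 231 and 202 CPM against 34.8, 41.6 and 52.4 CPM (log2 fold change 2.31, adjusted p = 1.76e-10), and the class II regulator Ciita rose by 0.66, while H2-Ab1 did not pass (0.04, SE 0.09). The 4 class II list members that fell are 3 cathepsin genes and March1. In the class I list, 8 of 23 fell (5 without pDC_TG replicate 3, 6 without replicate 4 and 3 against pDC_WT replicates 5 to 8 alone) and none rose; Pdia3, Canx and Calr among them are also on the ER list. B2m (-0.07, SE 0.09) and Tap1 (-0.19, SE 0.11) did not pass.

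Cell cycle genes depended on which libraries were used. Of 62 tested, 14 rose and 1 fell, but without pDC_TG replicate 4 the counts were 5 and 1. With all 28 libraries giving the spread, 27 rose, and against pDC_WT replicates 1 to 4 alone, 6 did. The list's mean level, on the log2(CPM + 1) scale and relative to the mean of pDC_WT, was 0.27, 0.27, 0.72 and 1.30 in pDC_TG and ran from -0.21 to 0.22 in pDC_WT. Replicate 4 was the highest, as it was for the neutrophil markers, whose part in this result was not tested. Mki67, the proliferation antigen, was at 0, 0.578, 1.05 and 5.36 CPM, highest in that library, against 0.0397, 0.932 and 3.17 CPM in pDC_WT. E2f1, a transcription factor of the G1 to S transition, was the member that fell (-0.96). Of 37 tested apoptosis regulators, 7 rose and none fell, with and without that library, and 1 fell without pDC_TG replicate 3. Bcl2, the survival factor, was at 24.3, 25.0, 24.3 and 24.6 CPM against 3.94, 8.31 and 10.2 CPM (log2 fold change 1.66, adjusted p = 4.73e-05), and the BIM gene Bcl2l11 did not pass (0.55, SE 0.23).

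**Figure D4:**
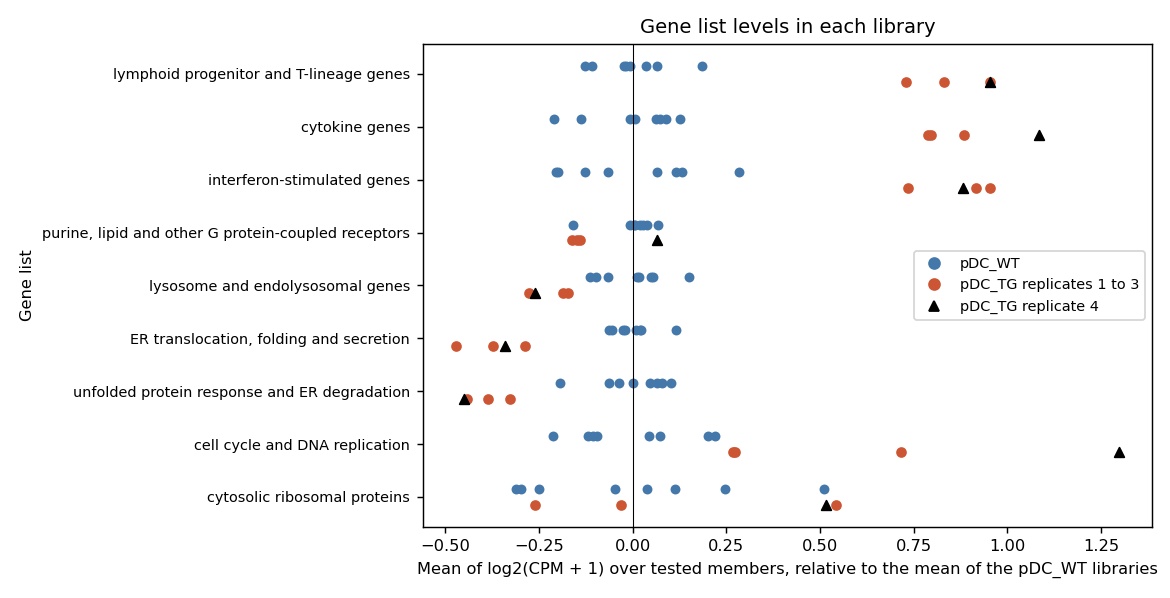
Level of 9 gene lists in each library, as the mean of log2(CPM + 1) over tested members minus its mean in pDC_WT. Blue circles are pDC_WT libraries, orange circles pDC_TG replicates 1 to 3 and black triangles pDC_TG replicate 4. The groups are separate for the lymphoid, cytokine, interferon-stimulated, lysosome, ER and unfolded protein response lists, replicate 4 stands apart for the cell cycle list (1.30, against 0.72 for the next), and the ribosomal list overlaps.

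Housekeeping lists had smaller shares of called genes than all tested genes with all 12 libraries in the fit, but the ribosomal list did not in every fit. Of 80 tested cytosolic ribosomal protein genes, 2 rose (2.50%) and none fell; leaving out 1 library at a time gave from 0 (without pDC_TG replicate 3 or 4 or any of pDC_WT replicates 2 to 6) to 10 of 80 (without pDC_WT replicate 8), and 5 without pDC_TG replicate 1. Of 77 oxidative phosphorylation genes, 3 rose (3.90%; 1 without pDC_TG replicate 4) and 1 fell (1.30%; 0 without pDC_TG replicate 2 or 3). Of 56 DNA repair genes, 1 rose (3 without pDC_WT replicate 1, 2 without pDC_WT replicate 8) and 2 fell (1 without pDC_TG replicate 4). The largest rise in the oxidative phosphorylation list was Cox6a2, the muscle-type cytochrome oxidase subunit that pDCs express, at 692, 753, 1451 and 1473 CPM against 293, 399 and 566 CPM (log2 fold change 1.41).

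Cox6a2 (chromosome 7, 128205435 to 128206387, minus strand) lies close to Itgax (chromosome 7, 128129547 to 128150657, plus strand), whose regulatory sequence drives the Cre. Itgax itself was at 460.3, 427, 486 and 402 CPM in pDC_TG and 117, 163 and 251 CPM in pDC_WT (log2 fold change 1.38, SE 0.19, adjusted p = 4.04e-05). Of 25 tested genes within 500 kb of it, 3 rose and 4 fell, and the median log2 fold change was -0.0034. The integrin gene Itgad was at 34.9, 55.4, 68.6 and 61.0 CPM against 8.82, 13.4 and 17.9 CPM (2.01), and the neighbouring Itgam passed as well, with 68.7% of its exonic bases in common with another annotated gene. On the other side, the G protein regulator Rgs10 was at 17.96, 23.9, 28.9 and 32.8 CPM against 75.7, 119.7 and 168 CPM (-2.17, adjusted p = 1.19e-06) and the calcium channel subunit Orai3 fell by 0.74. Whether the Itgax-cre allele contributes to the counts of these genes was not tested.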

How the data were processed

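RNA of flow-sorted spleen cells was made into cDNA from 4 ng of total RNA with the SMART-Seq v4 kit, and sequenced in single reads of 75 bases, per the labels' protocols. The deposited values are raw counts of reads per gene, 1 file per library with 24421 gene symbols and 5 summary lines. The submitters' processing notes name SAMtools 0.1.18, TopHat2 2.1.0, Trimmomatic 0.35 and FastQC 0.11.4, and mm10 as the build. How reads were counted, with which annotation and whether by strand, is not given in the sources used here. A gene and an overlapping partner therefore cannot be told apart. Reads assigned to no gene were 12.4% to 18.7% of a pDC library and ambiguous reads 1.24% to 1.57%; both stayed out of library sizes. Coordinates and overlaps come from GENCODE M21, to which 24045 symbols matched.

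The 12 pDC libraries alone were fitted with edgeR 4.0.16 in R 4.3.3 (TMM scaling, filterByExpr with a minimum count of 10 and a minimum total of 15, robust quasi-likelihood test), so that no conventional dendritic cell library entered the spread; p-values were adjusted by the Benjamini-Hochberg method over 11968 genes, with a threshold of 0.05. CPM are TMM-scaled. Standard errors of log2 fold changes were derived from the test statistic. Groups were taken from sample titles; p-values measure the spread between the numbered mice. The fit was tested on simulated data. Alternatives left out each library, used pDC_WT replicates 1 to 4 or 5 to 8 alone, the replicate number as a block, all 28 libraries, DESeq2 1.42.0 (its size factors, and its Wald test), total counts, other filters and a test against a 1.5-fold change.

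The genes named were Irf8, the 12 largest changes and the 12 smallest p-values in each direction among genes passing with and without pDC_TG replicate 4 (at least 10 CPM in the higher group, no overlap of libraries, no predicted genes, antigen receptor segments or markers of cells other than dendritic cells), and up to 5 members of each of 35 function lists with the smallest adjusted p together with members marked as key; a subset of these is printed. Other printed genes are outside this rule and were picked with their values known. Among them are Cebpb, Id3, Irf2, Psap, Lamp2, Hrh1, Adora2a, Gpr34, Lpar1, Ptafr, Gpr35, Atp2b4, Fut7, St8sia6 and Dll4. Cd2, Cd4, Pik3ap1, Ifng, Tgfb1, Tlr12, Icos and Itgad, a neighbour of Itgax, are others. Genes such as Canx and Hsp90b1 were named because their promoters hold the ER stress response element. The comparison, the lists and the rule were chosen with earlier results of these data known. Lists are described by counts beside the share of all genes; no set was tested.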

Additional observations from a re-analysis of the deposited data

Results flagged for a closer look

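Within-group spread was examined with Dixon's ratio in the 4 pDC_TG libraries and the 8 pDC_WT libraries for each named gene and each marker sum, over 320 sets of values, where a set under 1 CPM in every library of the group was counted but not tested. A library was called far out past the ratio's 95% critical value for the group's size. A library far from the rest of its group was found in 23 of them; chance alone flags about 1 in 20 groups.

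The pDC_TG replicate 4 library was the one far out in 6 sets. Its neutrophil markers summed to 216.4 CPM, with 5.37 CPM in the next library, and its monocyte and macrophage markers to 51.21 CPM, with 18.8 CPM next. It was also the highest for Ccr9 (1189 CPM, next 984 CPM) and Orai3 (284.2 CPM, next 240.7 CPM) and the lowest for Oas3 (43.46 CPM, next 55.4 CPM) and Dnajc3 (201.4 CPM, next 219.6 CPM). These 4 genes lay on the same side of the control mean in all pDC_TG libraries.

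Among the other pDC_TG libraries, replicate 1 was the highest for the E protein inhibitor Id3 (77.08 CPM, next 37.1 CPM) and the lowest for Elovl5 (262.7 CPM, next 302.4 CPM), replicate 2 the highest for Calr (716.8 CPM, next 644.1 CPM), and replicate 3 the highest for Lpar1 (8.894 CPM, next 2.98 CPM) and Ifit3 (54.71 CPM, next 37.64 CPM).

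In pDC_WT, replicate 7 was the highest for Esr1 (1.041 CPM), for Ifng (1.276 CPM) and for the summed B cell markers (38.65 CPM, next 20.4 CPM). Replicate 6 was the highest for Il34 (1.224 CPM) and Mycl (616.4 CPM), replicate 3 for Dll4 (154.3 CPM), Fads1 (103.9 CPM) and Icos (2.398 CPM), replicate 2 for Cd44 (983.7 CPM) and the summed plasma cell markers (365.4 CPM) and replicate 4 for Tlr9 (13.09 CPM). Replicate 1 was the lowest for Ube2j1 (115.2 CPM, next 145.2 CPM). None of the values for Esr1, Ifng, Il34, Fads1 and Icos, which rose, reached the nearest pDC_TG library. For Mycl, Dll4, Cd44 and Ube2j1 the flagged control value lies on the side away from pDC_TG, so it could not.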

How the results depend on the processing

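Leaving out 1 library at a time gave 641 to 866 genes higher and 754 to 976 lower, 166 to 205 higher and 181 to 223 lower among members of the function lists (197 and 223 with all libraries), and a log2 fold change of Irf8 from -2.18 to -1.98. With the replicate number as a replicate block the counts of all genes were 475 higher and 595 lower. No fit with it is a paired test of mice, since same-numbered libraries did not deviate together (correlations of their deviations 0.0417, 0.0372, -0.0311 and -0.0331) and none correlated best with its own number. Against a 1.5-fold change, 286 genes were higher and 229 lower, and 94 and 53 on the lists. Higher calls were 46.1% of all calls with TMM, 53.5% with total counts alone and 52.3% with all 28 libraries. Irf8 stayed past the threshold in every alternative. Besides it, of 132 named genes that passed, none changed direction, 91 kept their call throughout and 24 lost it only against a 1.5-fold change. Many of these genes were chosen for small p-values or large changes in these data, some also for passing without pDC_TG replicate 4. The stability of their calls is therefore partly built in. Single libraries ended the calls of Canx, Derl3, Dnajc3, Fli1, Icos and Ifng; the cause was not tested. Of 1540 list counts under an alternative, 1343 stayed within 1.5 times the main count. With the replicate block, 8 lymphoid and T-lineage, 5 cytokine and 18 interferon-stimulated genes rose, and 22 ER list genes fell. The main fit gave 13, 8, 26 and 34. Against a 1.5-fold change these counts were 8, 5, 17 and 4. Depth limits genes near 1 CPM, where a library holds few counts.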

Other observations

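Costimulatory and inhibitory molecules, a list of 28 tested genes, showed 7 rises (25.0%) and 5 falls (17.9%), and 5 and 5 without pDC_TG replicate 4. The shares of all tested genes were 6.92% and 8.09%. Cd80, a ligand of CD28, was at 8.58, 11.3, 7.15 and 7.92 CPM in pDC_TG and 0.0406, 1.36 and 2.80 CPM (lowest, median and highest) in pDC_WT (log2 fold change 2.71, adjusted p = 0.00245). Ctla4, which encodes a T cell receptor for the same ligand, was at 5.28, 14.1, 17.0 and 10.7 CPM against 0, 1.00 and 2.11 CPM (3.39, adjusted p = 6.40e-04). Its relative Icos rose by 3.63, but did not pass without pDC_TG replicate 3 (adjusted p = 0.132) or 4 (0.0516). Cd40, a receptor through which T cells activate dendritic cells, was at 0.837, 1.20, 1.42 and 4.01 CPM against 2.52, 14.1 and 19.8 CPM (-2.72, adjusted p = 0.00165), with 1 deleted library inside the control range.

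Among abundant genes on no list, Limd2, a LIM-domain gene, was at 488, 547, 599.9 and 527 CPM against 94.4, 133 and 147 CPM (log2 fold change 2.09, adjusted p = 5.82e-10). Zc3h12c, a CCCH zinc finger gene of the family of Regnase-1, was at 70.0, 56.2, 44.2 and 74.1 CPM against 212, 247 and 282 CPM (-2.02, adjusted p = 2.16e-08). Upb1, an enzyme of pyrimidine breakdown, fell by 1.53 on the log2 scale.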
